A study of Mus musculus with 18 samples.

Results

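The genes described here encode the class II and class IV histone deacetylases of the mouse, found by their symbols in the count table of every library. They are 7 of the 53672 genes listed. Hdac4, Hdac5, Hdac7 and Hdac9 form class IIa, Hdac6 and Hdac10 form class IIb, and Hdac11 is the only member of class IV. RNA had been sequenced from E14TG2a mouse embryonic stem cells (ESCs) in which both endogenous Hdac1 and Hdac2 are floxed (Hdac1/2 lox/lox) and can be deleted with 4-hydroxytamoxifen (OHT). All 6 groups carried the floxed alleles and a stably integrated HDAC1-Flag transgene for rescue, either the wild-type form (HDAC1-WT) or one of the mutants HDAC1-E63R and HDAC1-Y48E. Each of the 3 rescue lines was sequenced untreated and with OHT, with 3 libraries per group and 18 in all. The labels give 1 µM OHT for 5 days, whereas the study's methods describe a shorter exposure followed by culture without it. The transgenes had been inserted with the piggyBac transposase, and whether a line is a single clone is not given in the sources used here. Each form of HDAC1 was sequenced in its own line only, so the mutation and the line cannot be told apart. Untreated mutant cells still held their endogenous Hdac1 and Hdac2 beside the transgene.

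Histone deacetylases remove acetyl groups from lysines, and those of classes I, II and IV do so with a zinc ion. HDAC1 and HDAC2, the class I enzymes deleted in this study, work in the nucleus as the catalytic subunits of corepressor complexes. The class IIa proteins have little activity of their own on acetyl-lysine. They bind MEF2 transcription factors, recruit the NCoR/SMRT corepressor with HDAC3, and leave the nucleus on 14-3-3 proteins once CaMK, PKD or SIK kinases have phosphorylated them. HDAC6 is mainly cytoplasmic and deacetylates tubulin, cortactin and HSP90, HDAC10 deacetylates acetylated polyamines, and HDAC11 removes fatty acyl groups from lysine. The counts of these 7 genes therefore show which other zinc-dependent deacetylase transcripts were present when HDAC1 was supplied by a wild-type or a mutant transgene.

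Counts on genes ranged from 9019615 to 11454638 per library, and 3 counts corresponded to 0.262 to 0.333 CPM, the unit of counts scaled to a common library size. Levels were scaled with TMM factors, differences are log2 fold changes from edgeR's quasi-likelihood test, and a gene passed the test when its adjusted p was under 0.01. The study also required a change of more than 2-fold. The study calls the libraries of a group biological replicates, but the labels do not say whether they came from separate cultures, so the p-values measure only the spread between these libraries. Hdac1 and Hdac2 did not settle the OHT labels. The log2 fold change of Hdac1, on which transgene reads would also be counted, was -0.24, 0.22 and 0.14 with OHT in the HDAC1-WT, HDAC1-E63R and HDAC1-Y48E lines, that of Hdac2 was -0.66, -0.21 and -0.07, and none passed. Without the library that stands apart (described next), Hdac2 passed in HDAC1-WT (edgeR adjusted p = 1.45e-07) at the same log2 fold change of -0.66. The 9 ESC markers were detected in every group. Their summed level was 8033 to 8201 CPM in untreated and 8463 to 9353 CPM in OHT-treated HDAC1-WT cells, 5600 to 9067 and 4841 to 5174 CPM in HDAC1-E63R cells, and 6130 to 6233 and 2728 to 2881 CPM in HDAC1-Y48E cells. The third library of the untreated HDAC1-E63R group stood apart. Its counts differed from the other libraries of that group with a chi-square per degree of freedom of 60.4 and 67.1, against 3.38 to 7.42 for every other pair of replicates. Among 10343 genes with a mean of at least 10 CPM in that group, 1177 (11.4%) lay more than 2-fold from the mean of the other libraries. It was kept. Tests of the 7 genes in which it changed a call, and the sums, list counts and neighbouring gene that it moved, are also given without it.

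The genes lie on 6 chromosomes in mm10 (GENCODE positions). Hdac6 spans chrX:7930120-7947889 on the minus strand and Hdac5 chr11:102194432-102230166 on the minus strand. Hdac9 is the longest, at 870 kb on the minus strand of chr12:34047580-34917095, and Hdac10 the shortest, at 5.39 kb on the minus strand of chr15:89123307-89128700. Hdac7 lies on the same chromosome at chr15:97792664-97844502 (minus strand), Hdac4 at chr1:91928779-92195699 (minus strand) and Hdac11 at chr6:91156665-91174692 (plus strand).

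The 250 bases upstream of the annotated starts are shown for 4 genes whose levels differed between groups or that lie at the extremes of abundance. RefSeq (GRCm38.p6) gave promoter windows for 6 of the 7 genes, with 10 starts in all. Capitals mark GC boxes (GGGCGG on either strand, found in 32.7% of 32851 mouse promoters of this length) and MEF2 sites (2.92% of them), which were searched on both strands and do not overlap each other here. The Hdac6 window, chrX:7947890-7948139 on the minus strand, held 4 GC boxes and 17 CpG dinucleotides, against a median of 6 over all promoters. The Hdac5 window, chr11:102230173-102230422 on the minus strand, held 1 GC box and 1 MEF2 site, the only MEF2 site in the 10 windows. The Hdac11 window, chr6:91156565-91156814 on the plus strand, held 1 GC box and 17 CpGs. It lies upstream of the RefSeq start, and the GENCODE start of Hdac11 at chr6:91156665 falls within it. Hdac9 had an upstream start (window chr12:34917096-34917345) and an internal start (chr12:34528890-34529139), both on the minus strand. These windows held 0 and 2 CpGs and no GC box, and the first held a TATA box (TATAAA, found in 12.4% of promoters).
Hdac6: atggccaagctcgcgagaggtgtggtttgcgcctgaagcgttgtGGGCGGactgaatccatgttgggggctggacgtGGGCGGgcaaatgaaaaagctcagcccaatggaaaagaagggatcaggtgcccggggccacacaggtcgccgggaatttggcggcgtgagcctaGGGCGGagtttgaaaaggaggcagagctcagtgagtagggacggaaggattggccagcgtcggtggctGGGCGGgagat
Hdac5: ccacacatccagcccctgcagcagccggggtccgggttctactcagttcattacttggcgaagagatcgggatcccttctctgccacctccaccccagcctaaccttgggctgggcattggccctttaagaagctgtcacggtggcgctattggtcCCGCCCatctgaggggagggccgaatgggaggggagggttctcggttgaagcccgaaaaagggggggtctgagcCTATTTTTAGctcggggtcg
Hdac11: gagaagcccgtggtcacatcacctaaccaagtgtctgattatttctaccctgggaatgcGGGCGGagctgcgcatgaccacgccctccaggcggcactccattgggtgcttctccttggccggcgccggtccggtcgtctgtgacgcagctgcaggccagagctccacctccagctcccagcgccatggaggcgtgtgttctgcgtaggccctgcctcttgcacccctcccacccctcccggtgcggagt
Hdac9 (upstream start): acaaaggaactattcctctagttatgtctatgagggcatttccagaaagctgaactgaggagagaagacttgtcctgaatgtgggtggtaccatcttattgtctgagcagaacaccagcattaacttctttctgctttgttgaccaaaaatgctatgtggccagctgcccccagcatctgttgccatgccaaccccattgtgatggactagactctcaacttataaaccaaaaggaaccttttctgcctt
Hdac9 (internal start): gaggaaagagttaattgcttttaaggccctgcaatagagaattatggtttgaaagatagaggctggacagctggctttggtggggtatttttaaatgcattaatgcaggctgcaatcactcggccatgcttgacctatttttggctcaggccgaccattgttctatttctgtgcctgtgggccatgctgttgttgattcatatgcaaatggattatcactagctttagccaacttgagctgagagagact

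Per exon length, the tubulin deacetylase gene Hdac6 was the most abundant of the 7. Its mean over the 18 libraries was 23.1 CPM per kb. Hdac5 followed at 12.5 CPM per kb, then Hdac11 at 5.54, Hdac7 at 3.85, Hdac4 at 2.95, Hdac10 at 1.46 and Hdac9 at 0.184 CPM per kb. Hdac6 was above Hdac5, Hdac5 above Hdac11, and Hdac4 above Hdac10 in 18 of 18 libraries. Hdac10 was above Hdac9 in 17 of 18 libraries. The place of Hdac11 differed between the lines. It was above Hdac7 in 0 of 6 HDAC1-WT libraries and in 6 of 6 libraries of each mutant line, or 12 of 18 in all. Its group means were 3.61 and 3.13 CPM per kb in untreated and OHT-treated HDAC1-WT cells and 6.04 to 7.29 in the 4 mutant groups, where Hdac7 had 5.05 and 5.10, and 3.01 to 3.79 CPM per kb. Hdac7 was above Hdac4 in 14 of 18 libraries. All 7 genes passed the filter on low counts. Hdac9 had 5 to 70 counts and Hdac10 13 to 86 counts per library, so counting error weighs more on these 2 genes than on Hdac6, with 766 to 1935 counts.

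**Figure D1:**
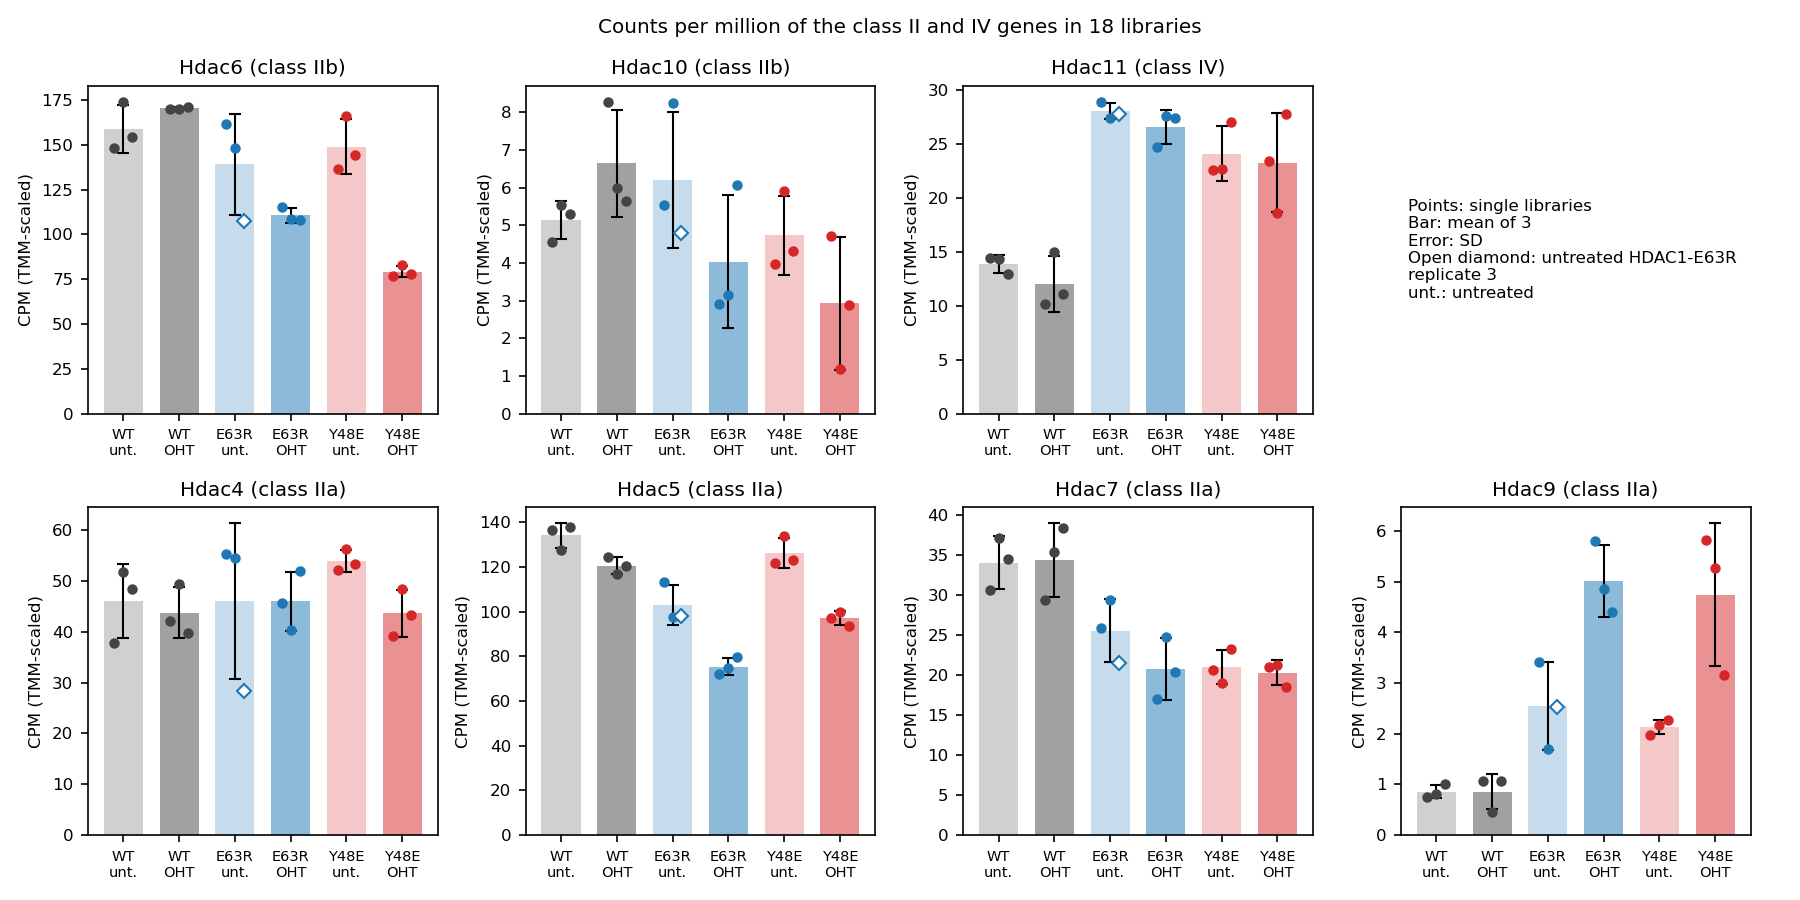
Levels in CPM (TMM-scaled, y axes from 0) of the 7 genes in the 6 groups (x axes), with bars for the mean of 3 libraries, error bars for the SD, points for single libraries and an open diamond for the third untreated HDAC1-E63R library. Hdac6 was at 79.2 CPM on average in OHT-treated HDAC1-Y48E cells and at 111 to 170.3 CPM elsewhere, Hdac9 was lowest in both HDAC1-WT groups, and Hdac11 was higher in all 4 mutant groups than in either HDAC1-WT group.

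The first question was whether the 7 transcripts differed between OHT-treated and untreated cells when the wild-type protein was supplied. In the HDAC1-WT line 0 of the 7 genes passed the test, and 0 had an unadjusted p under 0.05 (DESeq2 also called 0). Of all 18791 genes tested, 0.0585% passed in this comparison. The log2 fold changes of the 7 lay between -0.20 (Hdac11) and 0.37 (Hdac10), with a median of 0.01 against 0 over all genes tested. Their 95% intervals bounded the more abundant genes closely, from -0.15 to 0.35 for Hdac6 and from -0.35 to 0.04 for Hdac5. For Hdac9 the interval ran from -0.99 to 1.01, so a change of up to 2-fold could not be told from none at 5 to 12 counts per library. Hdac5 was lower and Hdac10 higher in all OHT-treated than in all untreated libraries, 2 of the 7 genes, against 19.2% of all genes tested.

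In the HDAC1-Y48E line Hdac6 was lower in OHT-treated than in untreated cells by nearly 2-fold. Untreated HDAC1-Y48E libraries held 136, 166 and 144 CPM of Hdac6, and OHT-treated libraries held 76.9, 82.8 and 77.9 CPM. The groups did not overlap, and the highest treated library lay far below the lowest untreated one. The log2 fold change was -0.91 (SE 0.12, 95% interval -1.17 to -0.66, edgeR adjusted p = 3.32e-06), so that Hdac6 fell by 46.8%. Hdac5, a class IIa gene, fell less, from 122, 134 and 123 CPM to 97.4, 100.02 and 93.7 CPM, again without overlap. Its log2 fold change was -0.38 (SE 0.09, edgeR adjusted p = 0.00234). These 2 of the 7 genes passed, both lower, where 30.9% of all genes tested passed in either direction. The call for Hdac5 was lost without the untreated replicate 2 (edgeR adjusted p = 0.0172) and without the OHT-treated replicate 3 (edgeR adjusted p = 0.0149), with log2 fold changes of -0.34 and -0.36.

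Hdac9, the least abundant of the 7, had 1.98, 2.16 and 2.26 CPM in untreated and 5.82, 5.26 and 3.15 CPM in OHT-treated HDAC1-Y48E cells. The groups did not overlap, but the log2 fold change of 1.15 (SE 0.41, 95% interval 0.29 to 2.00) did not pass (edgeR adjusted p = 0.0277). Of the other class IIa genes, Hdac4 had a log2 fold change of -0.31 (adjusted p = 0.190 by edgeR) and Hdac7 of -0.05 (edgeR adjusted p = 0.839). The class IV gene Hdac11 had -0.05 (95% interval -0.40 to 0.30). The polyamine deacetylase gene Hdac10 had a log2 fold change of -0.70 with an interval from -1.54 to 0.15. It rested on 13 to 52 counts per library, and its OHT-treated libraries ranged from 1.18 to 4.72 CPM. In all, 4 of the 7 genes had groups that did not overlap, against 59.4% of all genes tested.

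In the HDAC1-E63R line Hdac5 was lower with OHT, and the call for Hdac6 depended on 1 library. Hdac5 stood at 113, 97.8 and 97.9 CPM in untreated and at 72.0, 74.7 and 79.6 CPM in OHT-treated HDAC1-E63R cells. The groups did not overlap. Its log2 fold change was -0.45 (SE 0.09, 95% interval -0.65 to -0.25, edgeR adjusted p = 0.00133), and it was the only one of the 7 to pass, where 14.3% of all genes tested did. The call just missed the threshold without the untreated replicate 1 (log2 fold change -0.37, edgeR adjusted p = 0.0104) or the OHT-treated replicate 1 (-0.42, edgeR adjusted p = 0.0121). In a fit of only the 6 libraries compared it was lost as well (edgeR adjusted p = 0.0573).

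Hdac6 stood at 161, 148 and 107 CPM in untreated HDAC1-E63R cells and at 115, 108 and 108 CPM with OHT. The lowest untreated value came from the library that stood apart and lay below all 3 treated values, whereas the other untreated libraries lay above them. The log2 fold change was -0.33 (SE 0.12, edgeR adjusted p = 0.0490) and did not pass. Without that library it was -0.49 (SE 0.08, edgeR adjusted p = 1.24e-05), and 2 of the 7 genes passed, against 18.5% of all genes tested in that fit. Hdac4, a class IIa gene, showed the same library in another way, with 55.3, 54.6 and 28.4 CPM untreated and 45.7, 40.4 and 51.9 CPM with OHT. Its log2 fold change was -0.00 with all libraries and -0.26 (edgeR adjusted p = 0.143) without that library. Hdac9 had 3.42, 1.69 and 2.52 CPM untreated and 5.79, 4.86 and 4.40 CPM with OHT, a log2 fold change of 0.97 (95% interval 0.14 to 1.81, edgeR adjusted p = 0.0821). The groups of Hdac9 did not overlap, and together with Hdac5 this made 2 of the 7 genes, against 36.9% of all genes tested. No gene of the 7 passed the 2-fold requirement of the study with OHT in any line, against 0.0532%, 5.91% and 16.6% of all genes in the HDAC1-WT, HDAC1-E63R and HDAC1-Y48E lines.

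**Figure D2:**
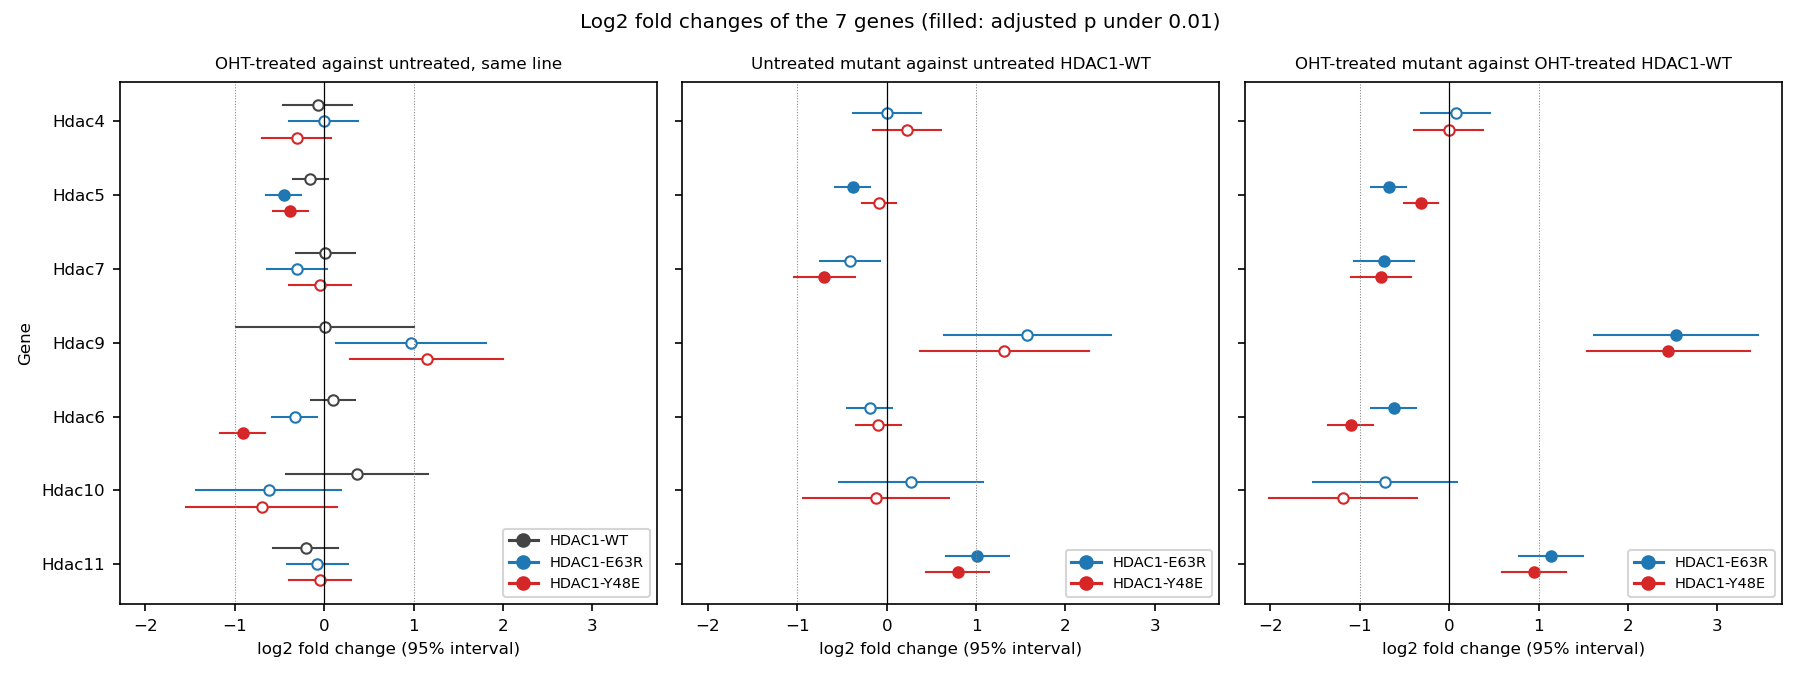
Log2 fold changes (x axes) of the 7 genes (y axis) with 95% intervals, for OHT against untreated cells of the same line (left), untreated mutant against untreated HDAC1-WT lines (middle) and OHT-treated mutant against OHT-treated HDAC1-WT lines (right). Filled points passed at an adjusted p under 0.01 and dotted lines mark 2-fold; the only filled points on the left are Hdac5 in both mutant lines and Hdac6 in HDAC1-Y48E, while on the right 5 of 7 are filled for each mutant.

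Whether the lines differed in their response was tested as an interaction. Only Hdac6 passed, in the comparison of HDAC1-Y48E with HDAC1-WT, where the OHT effect differed by -1.01 on the log2 scale (SE 0.17, 95% interval -1.37 to -0.66, edgeR adjusted p = 1.70e-04). That is 1 of the 7 genes, against 12.6% of all genes tested. In the HDAC1-WT line itself Hdac6 stood at 148, 174 and 154 CPM untreated and at 169.8, 170.2 and 171 CPM with OHT, so the groups overlapped there. The difference remained between -1.10 and -0.93 whichever HDAC1-Y48E or HDAC1-WT library was left out, or the untreated HDAC1-E63R library that stood apart. It passed in all 13 such fits.

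Between HDAC1-E63R and HDAC1-WT the Hdac6 effects differed by -0.43 (edgeR adjusted p = 0.147), and between HDAC1-Y48E and HDAC1-E63R by -0.58 (edgeR adjusted p = 0.0511). In these comparisons 0 of the 7 genes passed with edgeR and with DESeq2, 2 and 1 had an unadjusted p under 0.05, and 2.45% and 1.95% of all genes tested passed. Without the untreated HDAC1-E63R library that stood apart, Hdac6 passed in both, with differences of -0.59 (edgeR adjusted p = 1.94e-04) and -0.43 (edgeR adjusted p = 0.00836). The fit without that library called 6.53% and 7.45% of all genes. For Hdac5, which passed in both mutant lines and not in the HDAC1-WT line, the effects were not shown to differ from HDAC1-WT. Its differences were -0.30 (95% interval -0.57 to -0.02, edgeR adjusted p = 0.206) for HDAC1-E63R and -0.23 (95% interval -0.50 to 0.05, edgeR adjusted p = 0.236) for HDAC1-Y48E. Hdac9 differed by 0.96 and 1.14, with intervals from -0.35 to 2.27 and from -0.18 to 2.46.

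**Figure D3:**
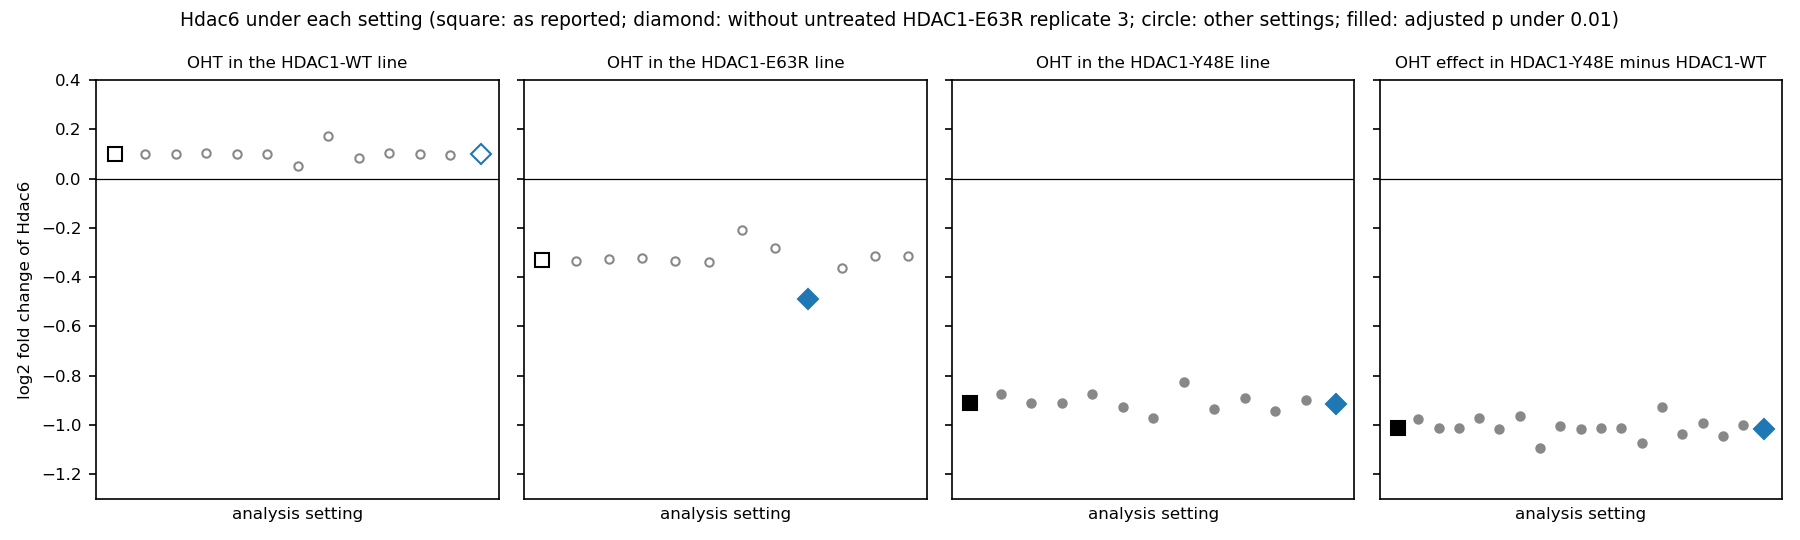
Log2 fold change of Hdac6 (y axis) under each analysis setting (x axis), for OHT in each of the 3 lines and for the difference between the HDAC1-Y48E and HDAC1-WT effects. Squares show the values as reported, diamonds the fit without the third untreated HDAC1-E63R library, circles the other settings and filled symbols an adjusted p under 0.01; the 2 panels on the right are filled throughout, and in HDAC1-E63R only the diamond is.

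Other cell type markers moved in the same comparisons, where 30.9% of all genes tested passed in HDAC1-Y48E and 14.3% in HDAC1-E63R. In OHT-treated HDAC1-Y48E cells 8 of the 9 ESC markers were lower than in untreated cells and 1 did not pass, and in HDAC1-E63R cells 4 were lower, 1 was higher and 4 did not pass. Of the markers tested in the OHT-treated HDAC1-Y48E cells, 4 of 5 muscle, 3 of 5 neuronal, 3 of 5 trophoblast, 2 of 3 fibroblast, 2 of 4 endothelial and 1 of 4 primitive endoderm markers were higher, and 1 endothelial marker was lower. In HDAC1-E63R cells the counts that were higher were 2 of 5, 2 of 5, 3 of 5, 2 of 3, 2 of 4 and 1 of 4. Without the library that stood apart, 3 of 5 muscle and 0 of 4 primitive endoderm markers were higher in HDAC1-E63R. Of the 9 ESC markers, 4 were lower and 2 higher there in that fit, and 4 were higher with OHT in HDAC1-WT. That fit called 18.5% of all genes with OHT in HDAC1-E63R and 1.39% in HDAC1-WT. The summed level of the 6 muscle markers listed was 8.80 to 9.45 CPM in untreated and 44.3 to 57.3 CPM in OHT-treated HDAC1-Y48E cells, and that of the 5 neuronal markers 54.4 to 60.7 and 115.5 to 132 CPM. The trophoblast and primitive endoderm sums were also higher with OHT in HDAC1-Y48E cells, without overlap. The endothelial sum went the other way, at 140 to 153 CPM in untreated and 78.9 to 92.8 CPM in OHT-treated HDAC1-Y48E cells. The 7 fibroblast markers listed summed to 23.0 to 27.2 CPM in untreated and 81.7 to 94.3 CPM in OHT-treated HDAC1-Y48E cells. In HDAC1-WT cells the fibroblast sum was also higher with OHT, at 35.9 to 41.9 CPM against 23.4 to 25.2 CPM. The neuronal sum was higher there too, at 64.7 to 80.2 CPM against 54.0 to 57.7 CPM. The muscle sums of HDAC1-WT overlapped, at 5.49 to 9.34 and 5.77 to 7.97 CPM, as did the endothelial sums, at 190 to 200 and 178 to 200 CPM. Of the fibroblast markers, Lum and Dcn were at 0 in all OHT-treated HDAC1-Y48E libraries. They were also at 0 in both HDAC1-WT groups and in untreated HDAC1-E63R cells. The part of these markers in the differences of the 7 genes was not tested. In bulk RNA, fewer cells with a transcript and less of it per cell cannot be told apart.

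The second question was how the mutant lines compared with the HDAC1-WT line before deletion. Hdac11, the class IV gene, was about 2-fold higher in untreated HDAC1-E63R cells. It stood at 14.4, 14.3 and 12.9 CPM in untreated HDAC1-WT cells, at 28.9, 27.4 and 27.8 CPM in untreated HDAC1-E63R cells and at 22.5, 22.7 and 27.0 CPM in untreated HDAC1-Y48E cells. Neither mutant group overlapped the HDAC1-WT group. The log2 fold changes were 1.01 (SE 0.17, edgeR adjusted p = 1.06e-04) for HDAC1-E63R and 0.79 (SE 0.17, edgeR adjusted p = 0.00169) for HDAC1-Y48E. The second call was lost without the untreated HDAC1-WT replicate 3 (log2 fold change 0.75, edgeR adjusted p = 0.0113) or the untreated HDAC1-Y48E replicate 3 (0.70, edgeR adjusted p = 0.0142).

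The lower genes that passed were Hdac5 in HDAC1-E63R and Hdac7 in HDAC1-Y48E. In untreated HDAC1-E63R cells Hdac5 was lower than in HDAC1-WT cells, which held 137, 128 and 138 CPM (log2 fold change -0.38, SE 0.09, edgeR adjusted p = 0.00393). This call was lost without the untreated HDAC1-WT replicate 1 or 3 or the untreated HDAC1-E63R replicate 2 (edgeR adjusted p = 0.0190, 0.0246 and 0.0162), without the filter on low counts (0.0238) and with only the libraries compared (0.100). Hdac5 and Hdac11 were 2 of the 7 genes, against 16.9% of all genes tested. Both also passed without the library that stood apart (log2 fold changes -0.34 and 1.03, edgeR adjusted p = 0.00180 and 1.61e-05), in a fit that called 20.5% of all genes. In untreated HDAC1-Y48E cells Hdac7, a class IIa gene known for its role in endothelial cells and thymocytes, stood at 20.7, 19.0 and 23.3 CPM, below the 30.6, 37.2 and 34.5 CPM of HDAC1-WT cells. Its log2 fold change was -0.70 (SE 0.16, edgeR adjusted p = 0.00338). The call was lost without the untreated HDAC1-WT replicate 2 or 3 or the untreated HDAC1-Y48E replicate 1 or 2 (edgeR adjusted p = 0.0228, 0.0140, 0.0168 and 0.0239). Hdac7 and Hdac11 were 2 of the 7 genes, against 12.2% of all genes tested. Whether HDAC1-E63R and HDAC1-Y48E differed from each other was not tested here, and Hdac7 in untreated HDAC1-E63R cells had a log2 fold change of -0.41 (adjusted p = 0.0609 by edgeR).

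Hdac9 was at 0.744, 0.816 and 1.00 CPM in untreated HDAC1-WT cells, from 8, 9 and 10 counts. Both untreated mutant groups lay above it without overlap, with log2 fold changes of 1.57 (95% interval 0.64 to 2.51, edgeR adjusted p = 0.0117) and 1.31 (95% interval 0.37 to 2.26, edgeR adjusted p = 0.0435). Neither passed with edgeR, and the first passed with DESeq2 (DESeq2 adjusted p = 0.00497) and without the untreated HDAC1-E63R replicate 2 (edgeR adjusted p = 0.00709). Hdac6, Hdac4 and Hdac10 overlapped the HDAC1-WT group in untreated HDAC1-E63R cells. In all, 4 of the 7 genes did not overlap for each mutant (Hdac5, Hdac7, Hdac9 and Hdac11 for HDAC1-E63R, and Hdac4, Hdac7, Hdac9 and Hdac11 for HDAC1-Y48E), against 35.2% of all genes tested for HDAC1-E63R and 40.2% for HDAC1-Y48E.

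The treated lines were also compared with each other, a comparison added after the data had been seen. The same 5 genes passed in both mutants, Hdac9 and Hdac11 higher and Hdac5, Hdac6 and Hdac7 lower than in OHT-treated HDAC1-WT cells. These comparisons share the HDAC1-WT libraries. They also include the differences between the untreated lines given above, and only for Hdac6 in HDAC1-Y48E did the OHT effect itself differ from HDAC1-WT with all libraries. They were 5 of 7 genes, against 19.3% of all genes tested for HDAC1-E63R and 31.8% for HDAC1-Y48E. The groups did not overlap for these 5 genes, and for Hdac10 in HDAC1-Y48E, against 50.5% and 59.8% of all genes tested. Hdac9 showed the largest fold, from 1.06, 0.454 and 1.06 CPM in OHT-treated HDAC1-WT cells to 5.79, 4.86 and 4.40 CPM in OHT-treated HDAC1-E63R cells. Its log2 fold changes were 2.54 (SE 0.44, edgeR adjusted p = 1.33e-04) and 2.45 (SE 0.44, edgeR adjusted p = 1.03e-04), or 5.80-fold and 5.47-fold. Per exon length it remained the lowest of the 7 genes on average over all libraries.

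Hdac11 stood at 10.1, 15.0 and 11.0 CPM in OHT-treated HDAC1-WT cells, at 24.8, 27.6 and 27.4 CPM in OHT-treated HDAC1-E63R cells and at 23.4, 18.6 and 27.8 CPM in OHT-treated HDAC1-Y48E cells. It was thus above HDAC1-WT in every mutant library, treated or not. The log2 fold changes were 1.14 (edgeR adjusted p = 2.41e-05) and 0.95 (edgeR adjusted p = 1.08e-04). Hdac11 shares sequence with Gm44002, a short annotated transcript on the opposite strand. All 594 bases of Gm44002 lie within Hdac11 exons and make up 15.4% of their length, and Gm44002 had 26 to 105 counts. Its own log2 fold changes against HDAC1-WT were 0.90 and 0.97 in untreated and 0.86 and 0.68 in OHT-treated HDAC1-E63R and HDAC1-Y48E cells, and none passed. Without the library that stood apart the first was 1.20 and passed (edgeR adjusted p = 0.00517). Whether counting used strand is not given in the sources used here, so the reads of these genes cannot be told apart.

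For the 3 lower genes, Hdac6 had log2 fold changes of -0.62 (adjusted p = 4.33e-04 by edgeR) in OHT-treated HDAC1-E63R and -1.10 (edgeR adjusted p = 1.86e-07) in OHT-treated HDAC1-Y48E cells. Hdac7 stood at 29.4, 35.5 and 38.4 CPM in OHT-treated HDAC1-WT cells, at 17.1, 24.8 and 20.4 CPM in HDAC1-E63R and at 21.1, 21.3 and 18.5 CPM in HDAC1-Y48E cells, with log2 fold changes of -0.73 (adjusted p = 0.00146 by edgeR) and -0.76 (edgeR adjusted p = 5.93e-04). The first was lost without the OHT-treated HDAC1-WT replicate 3 or HDAC1-E63R replicate 1 (edgeR adjusted p = 0.0116 and 0.0166). Hdac5 stood at 124, 117 and 121 CPM in OHT-treated HDAC1-WT cells, with log2 fold changes of -0.68 (adjusted p = 9.57e-06 by edgeR) for HDAC1-E63R and -0.31 (edgeR adjusted p = 0.00916) for HDAC1-Y48E. The second lay close to the threshold. It was lost when any one of the 6 libraries compared was left out (edgeR adjusted p from 0.0175 to 0.0429), with another scaling (0.0191) and without the filter on low counts (0.0563).

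Hdac10 had 8.28, 5.99 and 5.65 CPM in OHT-treated HDAC1-WT cells, 2.90, 3.14 and 6.07 CPM in HDAC1-E63R cells and 4.72, 1.18 and 2.88 CPM in HDAC1-Y48E cells. The HDAC1-Y48E group lay below the HDAC1-WT group without overlap, but the log2 fold change of -1.19 (95% interval -2.01 to -0.36) did not pass (edgeR adjusted p = 0.0193). It passed without the OHT-treated HDAC1-Y48E replicate 1 (log2 fold change -1.70, edgeR adjusted p = 0.00401) and without the untreated HDAC1-E63R library that stood apart (-1.19, edgeR adjusted p = 0.00627). Hdac4 passed in none of the 10 comparisons. Its group means lay between 43.6 and 53.9 CPM, and its exons overlap those of the long noncoding RNA gene Gm26720 on the opposite strand over 22.4% of their length.

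Summed per exon length, the 7 genes held 55.7 ± 2.80 CPM per kb (SD, n = 3) in untreated and 56.0 ± 0.575 in OHT-treated HDAC1-WT cells. The corresponding values were 51.6 ± 7.30 and 42.0 ± 1.05 CPM per kb in HDAC1-E63R cells and 54.3 ± 3.57 and 37.7 ± 0.254 in HDAC1-Y48E cells. In untreated HDAC1-E63R cells the library that stood apart had the lowest sum, 43.4, and without it the mean was 55.7 ± 2.29 CPM per kb (SD, n = 2). The treated HDAC1-Y48E libraries, at 37.4 to 37.8 CPM per kb, lay below every untreated library of their line, at 50.9 to 58.0. Hdac6 alone made up 47.1% ± 1.91 of the sum in untreated and 36.2% ± 1.68 in OHT-treated HDAC1-Y48E cells. In HDAC1-WT cells it made up 48.9% ± 1.79 and 52.2% ± 0.524, and in HDAC1-E63R cells 46.0% ± 3.07 and 45.3% ± 2.64. Hdac5 took a share of 26.5% ± 0.701 in untreated and 29.4% ± 1.13 in OHT-treated HDAC1-Y48E cells. Among the 11 genes of zinc-dependent deacetylases, the other 4 being the class I genes Hdac1, Hdac2, Hdac3 and Hdac8, the class II and IV genes held 32.6% ± 2.12 of the level per kb in untreated and 37.7% ± 1.05 in OHT-treated HDAC1-WT cells. They held 41.0% ± 0.970 and 32.5% ± 0.237 in HDAC1-Y48E cells, and 37.5% ± 6.34 and 32.5% ± 0.815 in HDAC1-E63R cells, the first being 41.1% ± 1.45 without the library that stood apart, which had 30.3%. No test was run on these sums and shares, and the class I part includes any transgene reads counted on Hdac1. Hdac1 itself held 59.5 CPM per kb in untreated HDAC1-WT, 30.5 in untreated HDAC1-E63R and 29.3 in untreated HDAC1-Y48E cells. Its log2 fold changes against untreated HDAC1-WT were -0.96 and -1.02 (edgeR adjusted p = 8.81e-08 and 5.60e-08). Between OHT-treated cells they were -0.51 and -0.64 (edgeR adjusted p = 1.99e-04 and 6.67e-06). The part of Hdac1 in the shares was not tested.

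**Figure D4:**
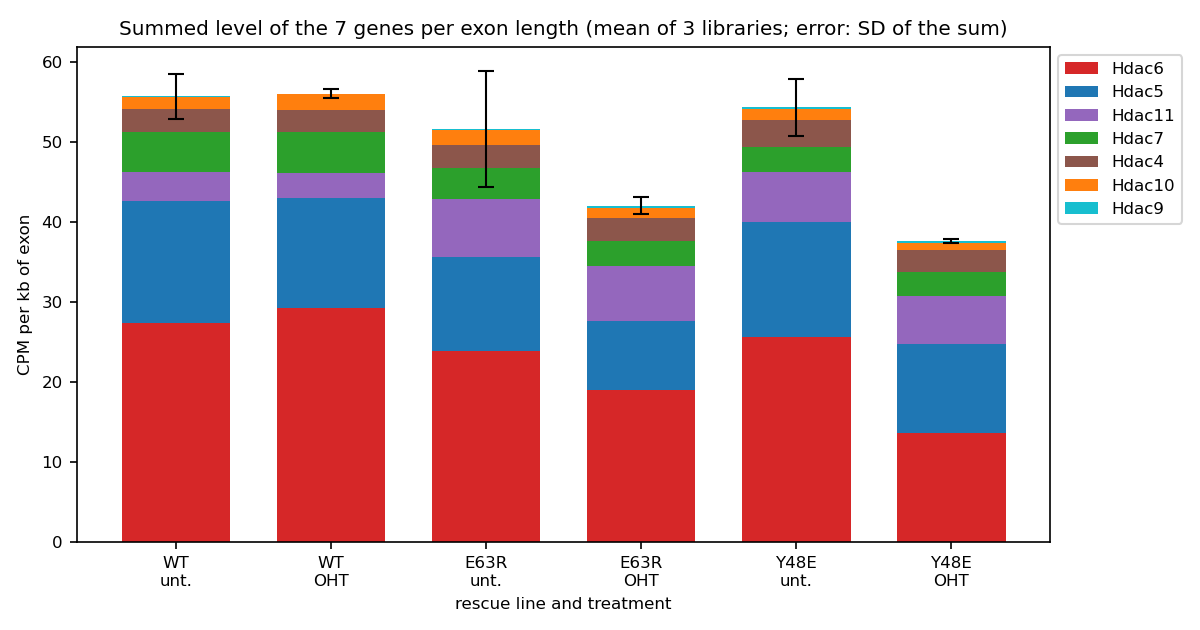
Level of the 7 genes in CPM per kb of exon (y axis, from 0) in the 6 groups of rescue line and treatment (x axis), stacked by gene as means of 3 libraries, with the SD of the sum as error bar. The stack is 37.7 CPM per kb in OHT-treated HDAC1-Y48E and 42.0 in OHT-treated HDAC1-E63R cells, against 51.6 to 56.0 in the other 4 groups, and the red Hdac6 block shrinks most.

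Genes of the pathways in which these enzymes work were counted on lists, which were chosen with earlier results of these data known. With OHT in the HDAC1-WT line no gene of any list passed, where 0.0585% of all genes tested did. The counts below are to be read against the 14.3% of all genes that passed with OHT in HDAC1-E63R and the 30.9% in HDAC1-Y48E. Without the library that stood apart these shares were 1.39%, 18.5% and 41.1%, and with OHT in HDAC1-WT 2 genes of 14-3-3 proteins and 1 of polyamine metabolism were then higher and 1 class I gene lower. Of the 3 MEF2 genes tested, the DNA-binding partners of class IIa, 1 was higher and 1 lower with OHT in HDAC1-Y48E, and none passed in HDAC1-E63R. Mef2b had a log2 fold change of -1.07 (adjusted p = 0.00164 by edgeR) in HDAC1-Y48E. Its difference from the HDAC1-WT effect did not pass with all libraries (-1.07, edgeR adjusted p = 0.0244). Of the 7 genes of 14-3-3 proteins, 3 were higher and 1 lower in HDAC1-E63R, and 2 were higher and 2 lower in HDAC1-Y48E, or 57.1% of the list in each. Sfn, which encodes 14-3-3 sigma, rose from a mean of 48.2 to 173 CPM in HDAC1-E63R (log2 fold change 1.85, edgeR adjusted p = 1.58e-08) and from 34.3 to 173 CPM in HDAC1-Y48E (2.33, edgeR adjusted p = 7.71e-11). Ywhab, which encodes 14-3-3 beta, had log2 fold changes of 0.69 (adjusted p = 2.79e-05 by edgeR) and 1.06 (edgeR adjusted p = 2.24e-08). With OHT in HDAC1-WT, Sfn had 0.41 and Ywhab 0.33, without overlap of the groups (edgeR adjusted p = 0.298 and 0.180). With all libraries the differences from the HDAC1-WT effect passed for Sfn in both mutants. For Ywhab that difference passed in HDAC1-Y48E (0.73, edgeR adjusted p = 5.99e-04) and not in HDAC1-E63R (0.36, edgeR adjusted p = 0.141). The median over the 14-3-3 list was 0.08 and 0.12, against 0.03 and 0.05 over all genes tested.

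Among 16 genes of class IIa kinases and their regulators, 1 was higher and 1 lower in HDAC1-E63R, and 4 were higher and 3 lower in HDAC1-Y48E (12.5% and 43.8% of the list). Prkd1, which encodes protein kinase D1, had a log2 fold change of 1.59 (adjusted p = 2.42e-04 by edgeR) in HDAC1-Y48E, and Camk2a 1.30 (edgeR adjusted p = 0.00347) in HDAC1-E63R. With all libraries the difference from the HDAC1-WT effect passed for Prkd1 (1.89, edgeR adjusted p = 0.00671) and not for Camk2a (1.10, edgeR adjusted p = 0.134). Camk2a ranged from 2.06 to 8.02 CPM in untreated and from 10.9 to 13.7 CPM in OHT-treated HDAC1-E63R cells. In OHT-treated HDAC1-WT cells it had 10.4 to 12.4 CPM. Of the 5 NCoR/SMRT-HDAC3 complex genes 1 was lower in each mutant, and 4 were in each without the library that stood apart. The 1 was Tbl1xr1, which encodes a WD40 subunit of the corepressor, with log2 fold changes of -0.82 (adjusted p = 3.51e-05 by edgeR) and -1.46 (edgeR adjusted p = 3.70e-09). Tbl1xr1 had -0.33 with OHT in HDAC1-WT (edgeR adjusted p = 0.296). With all libraries its difference from that effect passed in HDAC1-Y48E (-1.13, edgeR adjusted p = 4.09e-05) and not in HDAC1-E63R (-0.49, edgeR adjusted p = 0.0927). The 12 genes of HDAC6 substrates and tubulin acetylation held 1 higher and 1 lower in HDAC1-E63R, and 1 higher and 2 lower in HDAC1-Y48E (16.7% and 25.0% of the list). Of the 12 genes of polyamine metabolism, 2 were higher in HDAC1-E63R, and 4 were higher and 1 lower in HDAC1-Y48E (16.7% and 41.7%), the lower one being the polyamine oxidase gene Paox (log2 fold change -1.08, edgeR adjusted p = 2.65e-06). Of the 7 sirtuin genes, the class III deacetylases that use NAD+ in place of zinc, 1 was lower in HDAC1-E63R, and 2 were higher and 1 lower in HDAC1-Y48E (14.3% and 42.9%). Sirt3, which encodes a mitochondrial sirtuin, had log2 fold changes of -0.90 (adjusted p = 5.90e-05 by edgeR) and -1.65 (edgeR adjusted p = 7.17e-09). With all libraries none of the 4 class I genes passed with OHT in any line. Without the library that stood apart, higher and lower counts in HDAC1-E63R became 0 and 1 for MEF2, 4 and 1 for 14-3-3, 2 and 1 for the kinases, 4 and 2 for HDAC6 substrates, 5 and 0 for polyamine metabolism and 2 and 1 for sirtuins. In HDAC1-Y48E they became 1 and 1, 3 and 2, 5 and 4, 4 and 3, 5 and 1, and 3 and 2.

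The genes whose log2 CPM followed each of the 7 most closely over the 18 libraries were ranked among 16677 genes by Pearson's r, as a description. The libraries fall into 6 groups, so these values largely restate which groups were high or low. Hdac6 was followed most closely by Lima1 (r = 0.97), Cyp2s1 (0.97) and Ulk1 (0.97). Hdac9 was followed by Fhod1 (0.97), Eefsec (0.95) and Actb (0.94), and Hdac11 by Smarca5 (0.95), Crmp1 (0.95) and Mpp6 (0.94). For Hdac5 the nearest were Ppp1r15a (0.91), Cntd1 (0.91) and Ube2j1 (0.91), for Hdac7 Keap1 (0.90), AU020206 (0.90) and Meis2 (0.90), and for Hdac4 Itpr1 (0.90), Ptpn23 (0.86) and Zfp609 (0.86). Hdac10, with few counts, was followed by Aox1 (0.86), Zfp174 (0.83) and Gm15541 (0.83).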

How the data were processed

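RNA-seq counts were analysed from all 18 libraries. The authors deposited raw counts per gene symbol, not normalized. The submitters' processing notes name HISAT2 2.1.0, SAMtools 1.9, HTSeq and mm10, and the annotation and the use of strand are not given in the sources used here. The 5 entries that name no gene held 59.4% to 61.2% of a library's entries and were left out. Counts on genes were 9019615 to 11454638 per library.

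Genes were filtered with edgeR's filterByExpr (18791 tested) and scaled with TMM factors (edgeR 4.0.16, R 4.3.3). A single quasi-likelihood model with a mean for each of 6 groups was fitted to all 18 libraries, with Benjamini-Hochberg adjustment within each comparison over every gene tested. Intervals are 95% intervals of the log2 fold change. Promoter windows came from RefSeq tables. Named genes were the 7 members, the 3 genes closest to each by correlation, their neighbours, and list members that passed with a more than 2-fold change after OHT in a mutant line. The members and lists were chosen with earlier results of these data known. The OHT-treated comparison between lines, and fits without the library that stood apart in comparisons that do not use its group, were added after seeing the data. As alternatives, scaling used relative log expression factors, and fits were made with no filter, a replicate block, only the libraries compared, the 2-fold limit, DESeq2 1.42.0 and each library left out. The fitting code was tested on simulated data.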

Additional observations from a re-analysis of the deposited data

Results flagged for a closer look

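The response of Hdac6 to OHT differed between the HDAC1-Y48E and HDAC1-WT lines by -1.01 on the log2 scale, by the interaction term of the edgeR model (SE 0.17, edgeR adjusted p = 1.70e-04). Hdac6 was lower in 3 of 3 OHT-treated HDAC1-Y48E libraries than in any untreated library of that line, whereas the HDAC1-WT groups overlapped. No other gene of the 7 met this condition in the fit of all 18 libraries.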

How the results depend on the processing

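With the study's 2-fold limit the number of the 7 genes that passed became 0 with OHT in both mutant lines, 1 in untreated HDAC1-E63R, 0 in untreated HDAC1-Y48E and 2 in each OHT-treated mutant against HDAC1-WT, where 7.65%, 5.57%, 9.36% and 18.2% of all genes passed in the last 4 comparisons. Without the filter on low counts 1 passed with OHT in HDAC1-Y48E (Hdac5 had an edgeR adjusted p of 0.0153) and 1 in untreated HDAC1-E63R. With only the libraries compared 0 passed with OHT in HDAC1-E63R and 1 in untreated HDAC1-E63R. Apart from the construction of the 2-fold limit, the cause was not tested. With 1 library left out the number ranged from 0 to 0, 0 to 2 and 1 to 2 with OHT in HDAC1-WT, HDAC1-E63R and HDAC1-Y48E, from 1 to 2 and 0 to 2 in the untreated mutants, and from 4 to 5 and 4 to 6 in the treated ones. For the differences between OHT effects it ranged from 0 to 1 for HDAC1-E63R minus HDAC1-WT and for HDAC1-Y48E minus HDAC1-E63R, and from 1 to 1 for HDAC1-Y48E minus HDAC1-WT.

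Without the untreated HDAC1-E63R library that stood apart, the share of all genes called rose to 1.39% with OHT in HDAC1-WT, to 6.53%, 23.1% and 7.45% for the differences between OHT effects (HDAC1-E63R minus HDAC1-WT, HDAC1-Y48E minus HDAC1-WT, HDAC1-Y48E minus HDAC1-E63R), to 20.5% and 21.4% in untreated HDAC1-E63R and HDAC1-Y48E, to 29.5% and 41.8% in the treated ones, and to 18.5% and 41.1% with OHT in these lines.

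With replicate number as a block the count of passing genes changed only for OHT-treated HDAC1-Y48E against HDAC1-WT, to 4 (Hdac5 log2 fold change -0.31, edgeR adjusted p = 0.0139). Whether the numbers pair the libraries was not settled. Deviations of same-numbered libraries correlated only at -0.0194 to 0.0441, which cannot exclude pairing. The best match among the OHT-treated libraries bore the same number for every HDAC1-Y48E replicate. In HDAC1-WT and HDAC1-E63R it did so for replicates 1 and 3 and not for replicate 2.

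Signs turned only for values that did not pass. The turned values reached 0.0326 in size in the other settings and 0.334 with 1 library left out. Hdac4 became 0.03264 and 0.03265 in OHT-treated HDAC1-Y48E against HDAC1-WT with relative log expression factors and with DESeq2, 0.0008988 and 0.01411 with OHT in HDAC1-E63R without the filter and with the block, and -0.004145 in untreated HDAC1-E63R with the block. Hdac9 became -0.0151 with OHT in HDAC1-WT with the block. With 1 library left out, log2 fold changes with OHT ranged from -0.1975 to 0.02296 (Hdac4), -0.07277 to 0.1151 (Hdac7) and -0.1772 to 0.3108 (Hdac9) in HDAC1-WT, from -0.2574 to 0.1501 (Hdac4) in HDAC1-E63R, and from -0.1159 to 0.03065 (Hdac7) and -0.1986 to 0.08813 (Hdac11) in HDAC1-Y48E. Hdac4 ranged from -0.1518 to 0.2584 in untreated HDAC1-E63R, from -0.02218 to 0.1681 in OHT-treated HDAC1-E63R and from -0.08491 to 0.08911 in OHT-treated HDAC1-Y48E, each against HDAC1-WT. The difference between OHT effects ranged from -0.1846 to 0.2242 for Hdac4 (HDAC1-E63R minus HDAC1-WT), from -0.1657 to 0.02196 for Hdac7 (HDAC1-Y48E minus HDAC1-WT), and for HDAC1-Y48E minus HDAC1-E63R from -0.008111 to 0.1108 (Hdac5), -0.1081 to 0.3991 (Hdac9), -0.5948 to 0.3343 (Hdac10) and -0.1213 to 0.1653 (Hdac11). Of 938 single-gene values, 857 kept their direction and their side of the threshold. The low counts of Hdac9 and Hdac10 limit what could be detected for them.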

Other observations

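The gene nearest to Hdac6 on the low-coordinate side, Eras, lies 1512 bases away on the same strand and encodes a RAS-like protein expressed in ESCs. It had 36.1, 36.2 and 35.9 CPM in untreated and 8.63, 8.25 and 8.73 CPM in OHT-treated HDAC1-Y48E cells (log2 fold change -2.08, SE 0.21, edgeR adjusted p = 5.61e-08). In HDAC1-E63R cells it had 38.6, 36.1 and 72.2 CPM untreated, the highest in the library that stood apart, and 24.3, 22.1 and 23.7 CPM with OHT (log2 fold change -1.07, edgeR adjusted p = 3.42e-04). Without that library the change was -0.68 (edgeR adjusted p = 6.19e-04). In HDAC1-WT cells its log2 fold change was 0.05 (95% interval -0.35 to 0.46). Against untreated HDAC1-WT cells Eras was higher in both untreated mutant lines (log2 fold changes 1.30 and 0.86, edgeR adjusted p = 3.07e-05 and 0.00279), where Hdac6 had -0.19 and -0.09 and did not pass. Without that library the first of these was 0.91 (edgeR adjusted p = 7.81e-06).

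Of the 14 nearest protein-coding genes on either side of the 7, 12 were tested. With OHT 0 passed in HDAC1-WT, 2 were higher and 1 lower in HDAC1-E63R, and 3 were higher and 3 lower in HDAC1-Y48E. Of all genes tested, 0.0585%, 14.3% and 30.9% passed in these comparisons. G6pc3, 350 bases from Hdac5, had a log2 fold change of -0.24 in HDAC1-Y48E and did not pass (edgeR adjusted p = 0.346), with overlapping groups. BC030867, 18715 bases from Hdac5 on the other side, had a log2 fold change of -1.27 (adjusted p = 3.02e-06 by edgeR) with OHT in HDAC1-Y48E. Vdr, the vitamin D receptor gene next to Hdac7, had 3.52 (edgeR adjusted p = 6.24e-04) in HDAC1-E63R and 2.33 (edgeR adjusted p = 0.00452) in HDAC1-Y48E, where Hdac7 had -0.30 and -0.05. Untreated Vdr levels were 0 to 0.678 CPM in HDAC1-E63R and 0.215 to 1.37 CPM in HDAC1-Y48E cells. With OHT they were 4.38 to 5.96 and 2.21 to 5.71 CPM. As 3 counts corresponded to 0.262 to 0.333 CPM, the Vdr changes rest on very few untreated counts. Fbln2, the fibulin 2 gene 37762 bases from Hdac11, had 1.93 (edgeR adjusted p = 1.51e-07) and 1.81 (edgeR adjusted p = 4.46e-08), where Hdac11 had -0.08 and -0.05. In HDAC1-WT cells Fbln2 was also higher with OHT without overlap, at 13.95 to 20.2 CPM against 8.93 to 11.1 CPM, but did not pass.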
